A study of Mus musculus with 17 samples.

Results

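Expression of 9 genes that encode A-type potassium channels of the Kv4 family and their accessory proteins was measured in mouse hippocampus. They are the pore-forming Kv4 genes Kcnd1, Kcnd2 and Kcnd3, the KChIP genes Kcnip1, Kcnip2, Kcnip3 and Kcnip4, and the dipeptidyl peptidase-like genes Dpp6 and Dpp10. The genes were chosen by name, as the known parts of the Kv4 complex, with earlier results of these data known. They are 9 of 55450 genes in the deposited lists, and all 9 passed the filter on low counts that left 17615 genes for testing.

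A-type potassium channels open at potentials near the firing threshold and close again within a short time, which delays firing and limits how far action potentials travel back into dendrites. In the hippocampus the channels of pyramidal cell dendrites are built mainly from Kv4.2, the product of Kcnd2, and Kv4.3, the product of Kcnd3, is found in interneurons and granule cells. KChIPs are calcium-binding proteins that attach to the inner end of Kv4 subunits, and DPP6 and DPP10 are relatives of a peptidase that have lost enzyme activity and that speed the gating of the channel and carry it to the membrane.

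The study asked whether raising transcription of another potassium channel gene, Kcna1, alters seizures and gene expression in temporal lobe epilepsy. C57BL/6J mice were made epileptic with kainic acid in the right amygdala. Every group, controls included, received AAV9 viruses in the right ventral hippocampus and doxycycline in the diet, which switches on dCas9-VP64, a nuclease-dead Cas9 fused to a transcriptional activator. The switch was driven by the Camk2a promoter, chosen to favour excitatory neurons, whereas the RNA came from whole hippocampus. The guide was sgKcna1, against the Kcna1 promoter, or sgLacZ, against a bacterial gene. Adult hippocampi formed 3 groups, with 5 libraries from control mice with sgLacZ (sham animals in the study), 6 from epileptic mice with sgLacZ and 6 from epileptic mice with sgKcna1. A control group with sgKcna1 was not analysed here. The labels do not say whether each library came from a separate animal, so p-values measure the spread between these libraries.

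Libraries held 11839240 to 28311328 reads in genes, and the 9 genes had between 83 and 11313 reads in each library, so depth did not limit their detection. The share of unmapped reads was lowest, 11.0%, in epileptic sgLacZ replicate 4 and highest, 41.5%, in epileptic sgKcna1 replicate 12, and both libraries often lay at the edge of their group below. In 6 of 17 libraries both Xist and Y-linked genes exceeded 1 CPM (reads of a gene scaled to a common library size), in 2 control, 1 epileptic sgLacZ and 3 epileptic sgKcna1 libraries. Kcna1, the target of the guide, had 13.9 to 133 CPM in epileptic sgKcna1 libraries against 16.9 to 56.7 in epileptic sgLacZ libraries (log2 fold change 0.32, adjusted p = 0.706). The positive sign rested on replicate 12, since the other epileptic sgKcna1 libraries had 13.9 to 29.5 CPM, and without it the log2 fold change was -0.65 (adjusted p = 0.293). Markers of all neurons were present at 3659 to 4756 CPM in sum in every library. In the control libraries alone this sum was 4195 to 4506 CPM, and in the epileptic sgLacZ libraries it was 3659 to 4165 CPM.

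Levels of different genes were compared as CPM per kilobase of exon. In control libraries Kcnip2 was the most abundant of the 9 genes, at 45.8 ± 6.57 CPM per kilobase (SD, n = 5). Kcnd2 followed at 25.5 ± 1.56, Kcnip3 at 23.8 ± 1.52, Dpp6 at 22.9 ± 1.04 and Kcnip4 at 18.9 ± 1.46 (SD, n = 5 each). The control values of Kcnd2 and Kcnip3 overlapped, as did those of Kcnip3 and Dpp6, so the order within these pairs was not resolved. Much lower levels were found for Dpp10, at 8.77 ± 1.70 CPM per kilobase, and for Kcnd3, at 3.52 ± 0.28. Kcnd1 had 1.96 ± 0.20 and Kcnip1 1.68 ± 0.41 CPM per kilobase (SD, n = 5), and their values overlapped. Kcnd2 was thus far above the other pore genes, and Kcnip1 was the rarest KChIP.

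**Figure D1:**
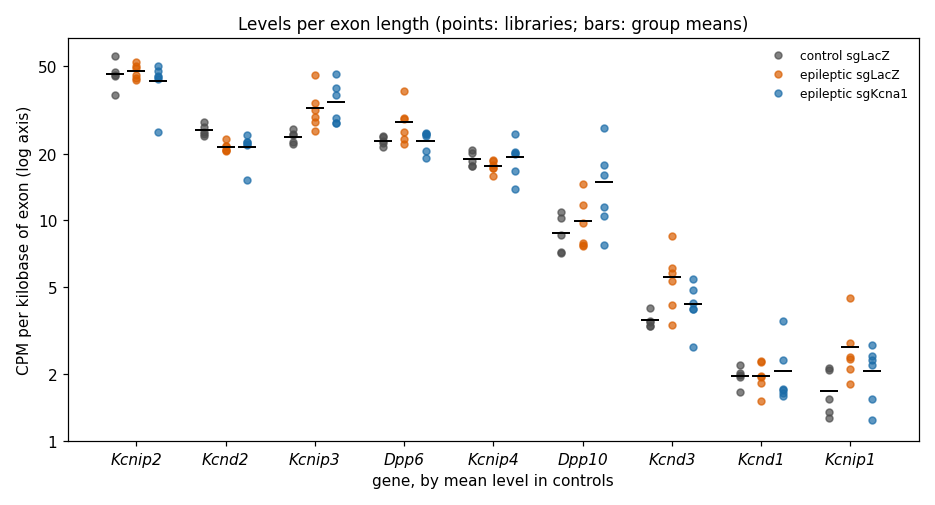
CPM per kilobase of exon (log axis) for each of the 9 genes in each library, with genes ordered by their mean in controls. Points are libraries, coloured by group (5 control sgLacZ, 6 epileptic sgLacZ, 6 epileptic sgKcna1), and bars are group means. In controls the range runs from 45.8 for Kcnip2 to 1.68 for Kcnip1.

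The first comparison asked what differed between epileptic and control hippocampi that had both received sgLacZ. Kcnd3 rose, and it was the only one of the 9 genes past an adjusted p of 0.05. Across all tested genes 11.0% were past this threshold, 1940 in number. This background depended on single libraries. It was 0 without control replicate 13, 14, 16 or 23 or epileptic sgLacZ replicate 4, 7 or 9, and 5526 without epileptic sgLacZ replicate 5. Kcnip1, Kcnip3 and Dpp6 had higher means and Kcnd2 a lower mean in epileptic mice at an unadjusted p under 0.05, but none of these passed adjustment. With Kcnd3 they make 5 of 9 genes, against 34.7% of all genes at that unadjusted threshold. The median log2 fold change of the 9 genes was 0.17, against 0.02 for all tested genes. Of the 9 differences 7 were positive, against 51.95% of all tested genes. The 7 include Kcnd1 at 0.0067 (SE 0.19) and Kcnip2 at 0.042 (SE 0.14), both far smaller than their SE. Kcnd2 was the only one of the 9 whose epileptic and control values did not overlap, and 4.39% of all tested genes showed no overlap in this comparison.

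**Figure D2:**
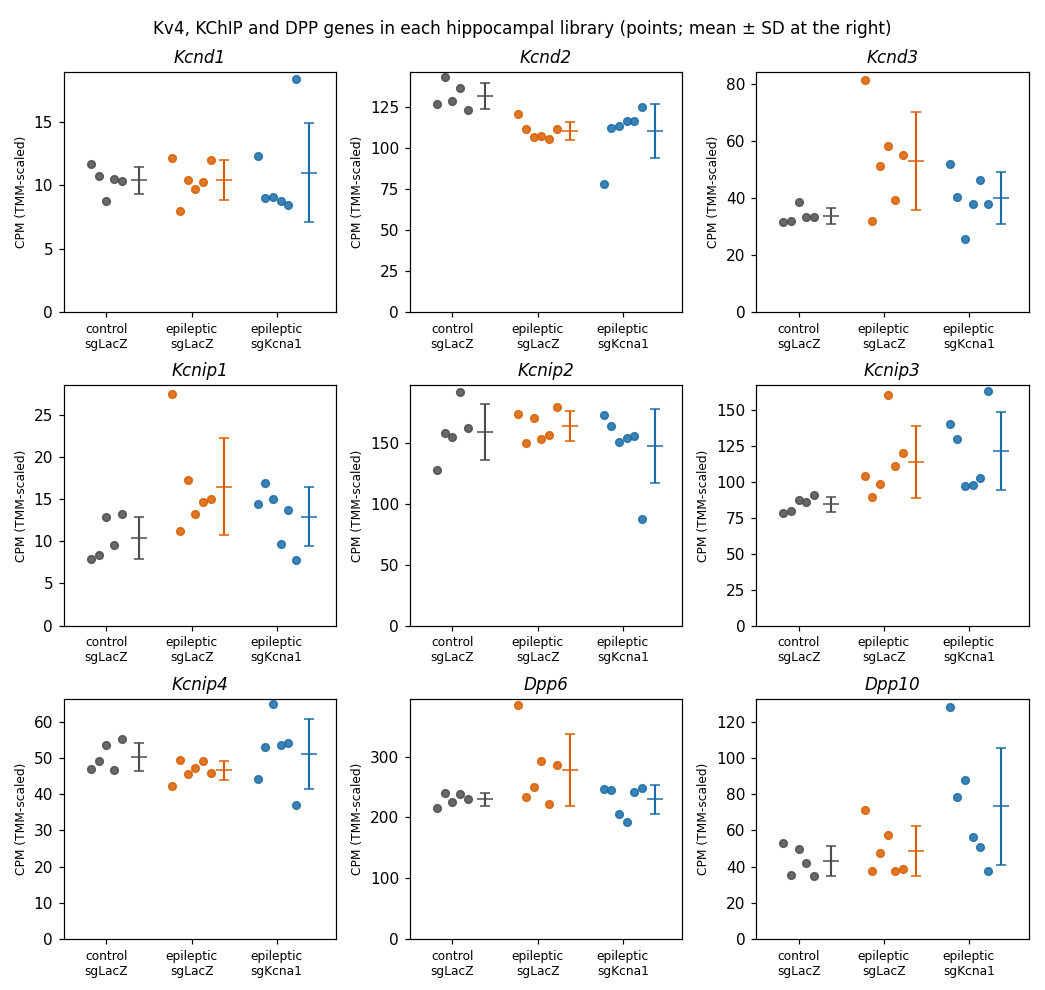
CPM of each of the 9 genes in each library (points), by group, with the group mean ± SD to the right of the points; the vertical axes start at 0. All 6 epileptic sgLacZ points of Kcnd2 lie below the 5 control points, and 5 of 6 Kcnd3 points lie above all control points.

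Kcnd2 encodes Kv4.2. In the GRCm38.p6 assembly it spans 21215346 to 21729805 on chromosome 6. Control libraries had 127, 143, 128, 136 and 123 CPM of Kcnd2. Epileptic sgLacZ libraries ranged from 105 to 121 CPM with a median of 109. Every one of these 6 libraries was below every control. The log2 fold change was -0.25 (SE 0.10, adjusted p = 0.0862, edgeR), a mean of 110 against 132 CPM. In epileptic sgKcna1 libraries Kcnd2 ranged from 77.9 to 125 CPM with a median of 115, and 5 of 6 were below all controls (log2 fold change -0.26, SE 0.10, adjusted p = 0.674). Of the 12 epileptic libraries of either guide, 11 were below the lowest control, and the exception was epileptic sgKcna1 replicate 12. In bulk tissue, fewer Kcnd2-expressing neurons and less Kcnd2 RNA per neuron cannot be told apart.

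Kcnd3 encodes Kv4.3 and lies on chromosome 3 from 105451890 to 105674002. Control libraries had 31.7, 31.9, 38.4, 33.3 and 33.4 CPM. In epileptic sgLacZ libraries Kcnd3 ranged from 32.0 to 81.4 CPM with a median of 53.1. The lowest of these, replicate 5, lay within the control range, and the highest, replicate 4, stood well above the rest. The mean was 1.57 times that of controls (log2 fold change 0.65, SE 0.20, adjusted p = 0.0445). This call was close to the threshold. It was lost when any of 12 single libraries was left out, with adjusted p from 0.0503 to 0.113. These were control replicates 13, 14, 15, 16 and 23, epileptic sgLacZ replicates 4, 6, 7 and 9, and epileptic sgKcna1 replicates 2, 10 and 11. For 7 of these 12 no gene at all passed the threshold, so those losses were not particular to Kcnd3. In the others Kcnd3 lost its call while 519 to 1519 genes passed. These were control replicate 15, epileptic sgLacZ replicate 6 and epileptic sgKcna1 replicates 2, 10 and 11. The log2 fold change stayed between 0.48 and 0.76 whichever library was left out. Without replicate 4 of the epileptic sgLacZ group the log2 fold change was 0.48 (adjusted p = 0.113). With the percent of unmapped reads as a covariate it was 0.45 (adjusted p = 0.141). The noncoding gene Kcnd3os overlaps Kcnd3, and the counts carried no strand information, but the strand-wise counts of Kcnd3 summed to at most 1.04 times the unstranded count.

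Epileptic sgKcna1 libraries had 25.5 to 51.9 CPM of Kcnd3 with a median of 39.1. This was between the means of the other groups, and the values overlapped both. The log2 fold change was -0.40 against epileptic sgLacZ (SE 0.19, adjusted p = 0.251) and 0.25 against control (SE 0.20, adjusted p = 0.804).

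Kcnd1 encodes Kv4.1 and lies on chromosome X from 7823759 to 7838278. Its means were 10.4 CPM in controls, 10.4 in epileptic sgLacZ and 11.0 in epileptic sgKcna1 libraries. The log2 fold change of epileptic sgLacZ against control was 0.01 (SE 0.19, adjusted p = 0.984). Epileptic sgKcna1 replicate 12 had 18.4 CPM, above the other 16 libraries, which lay between 7.99 and 12.3.

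Within each library the ratio of Kcnd2 to Kcnd3, per exon length, sets the main pore genes against each other without regard to library scaling. The ratio was 7.46, 8.35, 6.23, 7.63 and 6.88 in controls. It ranged from 2.76 to 6.48 in epileptic sgLacZ libraries with a median of 3.83, and 5 of 6 were below all controls. In epileptic sgKcna1 libraries it ranged from 2.79 to 8.28 with a median of 5.44. The spread in this last group spanned nearly the whole range of both others.

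**Figure D3:**
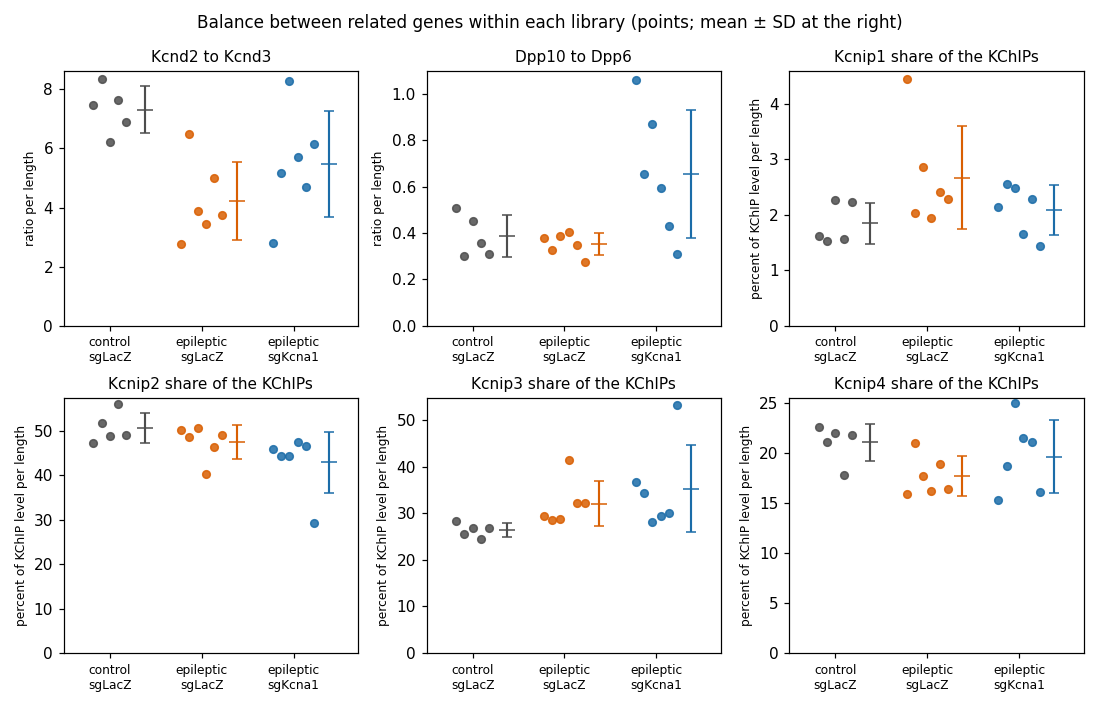
Ratios of Kcnd2 to Kcnd3 and of Dpp10 to Dpp6 and the share of each KChIP gene in the summed KChIP level (percent), all per exon length, in each library (points) by group, with mean ± SD to the right. The mean Kcnd2 to Kcnd3 ratio is 7.31 in control, 4.22 in epileptic sgLacZ and 5.47 in epileptic sgKcna1 libraries.

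The sequences before the annotated starts of Kcnd2 and Kcnd3 are shown because the means of these pore genes differed from controls in opposite directions in epileptic sgLacZ mice. Each is the 250 bases upstream of the start on the plus strand, from RefSeq on GRCm38.p6 (chr6:21215096-21215345 and chr3:105451640-105451889). Capitals mark matches on either strand to a GC box (GGGCGG), an E-box (CANNTG) and GTCA, the core of the element bound by the Kcnip3 product.
Kcnd2: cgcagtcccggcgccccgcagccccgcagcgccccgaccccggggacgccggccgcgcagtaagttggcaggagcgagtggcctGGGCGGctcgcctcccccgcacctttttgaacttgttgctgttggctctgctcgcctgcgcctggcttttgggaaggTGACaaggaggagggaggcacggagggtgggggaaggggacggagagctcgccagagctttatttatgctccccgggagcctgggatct
Kcnd3: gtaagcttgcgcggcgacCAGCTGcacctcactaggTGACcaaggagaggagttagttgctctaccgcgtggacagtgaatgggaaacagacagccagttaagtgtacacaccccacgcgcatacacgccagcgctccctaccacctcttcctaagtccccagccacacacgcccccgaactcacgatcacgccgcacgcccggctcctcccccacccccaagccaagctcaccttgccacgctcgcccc
The Kcnd2 window held 1 GC box and 1 GTCA, and the Kcnd3 window 1 E-box and 1 GTCA. Among 32851 promoter windows of the same length, 32.7% held a GC box, 66.2% an E-box and 80.2% a GTCA. Neither window held the cyclic AMP response element TGACGTCA or its shorter form TGACG, which contain GTCA on the opposite strand, the EGR motif GCGNGGGCG, which can overlap a GC box, or TATAA. These were found in 1.55%, 17.8%, 4.70% and 22.8% of windows. G and C made up 68.8% of the Kcnd2 window and 62.8% of the Kcnd3 window. The matches describe letters only. Binding was not measured.

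Among the KChIPs, Kcnip3 was higher in nearly every epileptic library. Kcnip3 encodes KChIP3, also known as calsenilin or DREAM, which besides binding Kv4 channels acts as a calcium-sensitive transcriptional repressor. It lies on chromosome 2 from 127456498 to 127522094. Control libraries had 78.4, 79.7, 87.3, 86.0 and 91.2 CPM. In epileptic sgLacZ libraries Kcnip3 ranged from 89.7 to 161 CPM with a median of 108, and 5 of 6 were above all controls (log2 fold change 0.43, SE 0.15, adjusted p = 0.0639). In epileptic sgKcna1 libraries it ranged from 97.2 to 163 CPM with a median of 116, and all 6 were above all controls (log2 fold change 0.53, SE 0.15, adjusted p = 0.527). Over both guides 11 of 12 epileptic libraries were above the highest control. Neither difference passed adjustment. In the sgLacZ comparison the adjusted p ranged from 0.0207 to 0.161 as single libraries were left out, and DESeq2 gave a call (adjusted p = 0.0468).

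Kcnip1, whose product KChIP1 is found mostly in interneurons, lies on chromosome 11 from 33629339 to 33993348. It was rare throughout, with 7.85, 8.37, 12.9, 9.60 and 13.2 CPM in controls. Epileptic sgLacZ libraries had 11.2 to 27.5 CPM with a median of 14.8, and 4 of 6 were above all controls. The difference was 0.66 on the log2 scale (SE 0.24, adjusted p = 0.0653). The highest value was again that of replicate 4, without which the log2 fold change was 0.46 (adjusted p = 0.173). In epileptic sgKcna1 libraries Kcnip1 ranged from 7.75 to 16.8 CPM with a median of 14.0, and these values overlapped both other groups.

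Kcnip2 and Kcnip4, on chromosomes 19 and 5, showed no difference larger than the replicate spread. Kcnip2 encodes KChIP2, a main partner of Kv4.2 in pyramidal cells. Its values in controls were 128 to 192 CPM, in epileptic sgLacZ libraries 150 to 180, and in epileptic sgKcna1 libraries 87.5 to 173. The log2 fold change of epileptic sgLacZ against control was 0.04 (SE 0.14, adjusted p = 0.850). Kcnip4 encodes KChIP4, of which some splice forms slow channel inactivation. It had 46.8 to 55.2 CPM in controls, 42.2 to 49.5 in epileptic sgLacZ and 36.9 to 64.9 in epileptic sgKcna1 libraries (log2 fold change of epileptic sgLacZ against control -0.11, SE 0.11, adjusted p = 0.502). Kcnip4 overlaps other annotated genes, and its strand-wise counts summed to up to 1.24 times the unstranded count, in epileptic sgLacZ replicate 4. With both strand counts added the log2 fold change was -0.0024. Splice forms cannot be told apart in counts per gene.

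As a share of the summed KChIP level per exon length, Kcnip2 had 50.6% ± 3.43 in controls, 47.5% ± 3.80 in epileptic sgLacZ and 42.9% ± 6.86 in epileptic sgKcna1 libraries (SD, n = 5, 6 and 6). Kcnip3 had 26.5% ± 1.46, 32.1% ± 4.86 and 35.3% ± 9.40 in the same groups. Its share in controls, 24.6% to 28.4%, was below that of all 6 epileptic sgLacZ libraries, 28.5% to 41.4%, by a narrow margin. Kcnip4 made up 21.1% ± 1.89, 17.7% ± 1.96 and 19.7% ± 3.67, and Kcnip1 1.85% ± 0.37, 2.67% ± 0.93 and 2.10% ± 0.45. Epileptic sgKcna1 replicate 12 had the lowest Kcnip2 share, 29.1%, and the highest Kcnip3 share, 53.3%.

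Dpp6 and Dpp10 differed in which epileptic group had the higher mean. Dpp6 lies on chromosome 5 from 26817357 to 27727500. Control libraries had 215, 240, 225, 238 and 229 CPM. Epileptic sgLacZ libraries had 222 to 385 CPM with a median of 269, and 4 of 6 were above all controls. This was a log2 fold change of 0.28 (SE 0.12, adjusted p = 0.117), and it was 0.16 without replicate 4 (adjusted p = 0.298). In epileptic sgKcna1 libraries Dpp6 ranged from 193 to 248 CPM with a median of 243. The mean was 230 CPM, as close as 0.0010 on the log2 scale to that of controls (SE 0.12, adjusted p = 0.998).

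Dpp10 lies on chromosome 1 from 123332138 to 124845815. Controls had 53.2, 35.3, 49.9, 41.8 and 34.9 CPM. In epileptic sgLacZ libraries the range was 37.6 to 71.3 CPM with a median of 43.1 (log2 fold change 0.17, SE 0.25, adjusted p = 0.657). Epileptic sgKcna1 libraries had 37.7 to 128 CPM with a median of 67.4. Of these, 3 of 6 were above all epileptic sgLacZ libraries and 4 of 6 above all controls, and the values of replicates 1, 2 and 3 were the highest. The log2 fold change was 0.60 against epileptic sgLacZ (SE 0.24, adjusted p = 0.226) and 0.77 against control (SE 0.26, adjusted p = 0.661). Without replicate 1 these were 0.36 and 0.53. The ratio of Dpp10 to Dpp6 per exon length was 0.39 ± 0.091 in controls, 0.35 ± 0.047 in epileptic sgLacZ and 0.65 ± 0.28 in epileptic sgKcna1 libraries (SD, n = 5, 6 and 6). In epileptic sgKcna1 libraries it ran from 0.31 in replicate 12 to 1.06 in replicate 1.

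The second comparison set epileptic mice with sgKcna1 against epileptic mice with sgLacZ, which shares the latter libraries with the first comparison. None of the 9 genes passed adjustment with edgeR, DESeq2 or limma voom. With edgeR 0% of all tested genes passed, that is 0 of 17615, and DESeq2 called 143 and limma voom with quality weights 12. With edgeR but without epileptic sgLacZ replicate 5, 1508 genes passed, none of them among the 9. At an unadjusted p under 0.05, Dpp10 had a higher mean and Dpp6 and Kcnd3 a lower mean with sgKcna1, 3 of 9 genes against 19.2% of all tested genes. Markers of dentate granule cells also had lower means with sgKcna1, 4 of 4 with a median log2 fold change of -0.59, as did 4 of 4 choroid plexus markers with a median of -0.93. Astrocyte markers had lower means, 5 of 5 with a median of -0.10, and markers of all neurons higher means, 4 of 4 with a median of 0.18. Of 6 interneuron markers 3 had higher means, Vip (0.76), Sst (0.60) and Pvalb (0.50). The other 3, Gad2 (-0.17), Slc32a1 (-0.17) and Gad1 (-0.016), had lower means. None of these markers passed adjustment, and their part in the values of the channel genes was not tested. For Dpp6 the log2 fold change was -0.28 (SE 0.12, adjusted p = 0.230). No gene of the 9 had groups without overlap, and 0.483% of all tested genes did. The remaining log2 fold changes lay between -0.35 for Kcnip1 and 0.14 for Kcnip4. For Kcnd2 the log2 fold change was -0.0034 (SE 0.09).

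The third comparison set epileptic mice with sgKcna1 against the same controls as the first. Again no gene of the 9 and 0% of all tested genes passed adjustment with edgeR, whereas DESeq2 called 39 and limma voom 71 genes, none of them among the 9. Kcnip3, Dpp10 and Kcnd2 were past an unadjusted p of 0.05, 3 of 9 genes against 6.77% of all tested genes. Kcnip3 alone among the 9 showed no overlap between groups, against 1.14% of all tested genes. The adjusted p of Kcnip3 and of Dpp10 depended on how the libraries were treated. With the percent of unmapped reads as a covariate it was 0.0733 for Kcnip3 and 0.0533 for Dpp10, and without replicate 12 of the epileptic sgKcna1 group it was 0.153 and 0.0968. None of these passed.

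**Figure D4:**
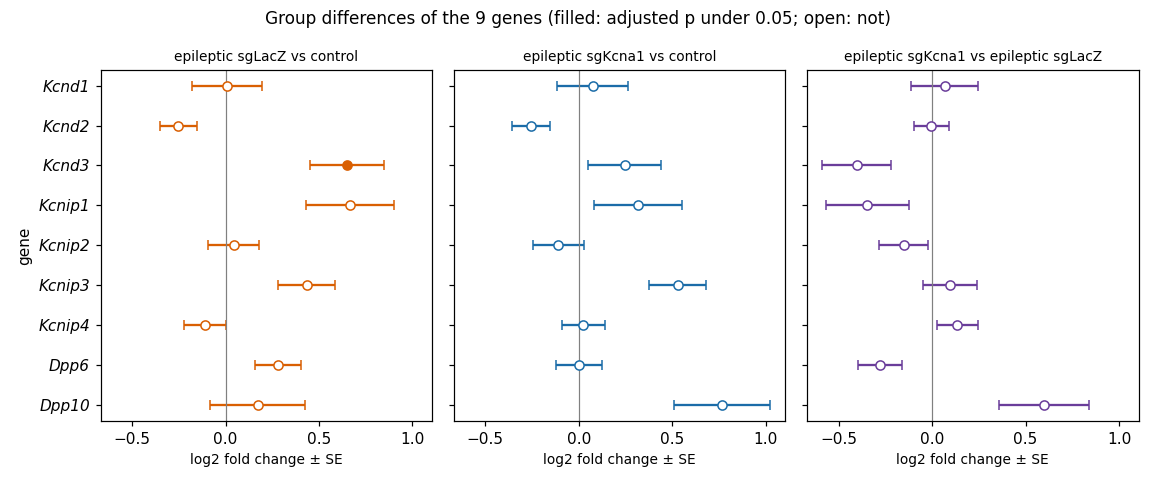
Log2 fold change ± SE (edgeR) of each of the 9 genes in the 3 comparisons, which share libraries; filled points have an adjusted p under 0.05 and open points do not. Kcnd3 in epileptic sgLacZ against control, at 0.65, is the only filled point.

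Other genes of the pathway were examined as lists in epileptic sgLacZ against control mice. These lists were chosen with earlier results of these data known. Among all tested genes 11.0% passed adjustment in this comparison, and counts on lists this short were not tested against that share. Of 6 genes for other A-type channels and the beta subunits of Kv1 channels, Kcnc4, which encodes the A-type channel Kv3.4, rose (log2 fold change 0.68, SE 0.15, adjusted p = 0.0320). Kcnab1, whose product confers inactivation on Kv1 channels, fell (log2 fold change -0.31, SE 0.09, adjusted p = 0.0404). Kcna4, the A-type channel of the Kv1 family, had a log2 fold change of -0.04. The median of this list was 0.08. The calls on these lists and on the cell type markers below rested on the full set of libraries, and each was lost when any of 7 to 13 single libraries was left out. For 7 of the 17 left-out libraries no gene at all passed, so those losses were not particular to these genes. Kcnc4 and, below, Dpp8 and Flna were lost only then.

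Of 16 regulators and partners of Kv4 channels 15 were tested, 3 rose and 0 fell, against 11.0% of all tested genes called in either direction. The median log2 fold change of this list was 0.16. Those that rose were Cacna1h and Cacna1g, which encode T-type calcium channels that couple to Kv4 complexes through KChIPs, and Flna, which encodes the actin crosslinker filamin A. They differed by 1.55 (SE 0.44, adjusted p = 0.0404), 0.72 (SE 0.19, adjusted p = 0.0347) and 0.72 (SE 0.20, adjusted p = 0.0376) on the log2 scale, in this order. Dlg4, the postsynaptic scaffold PSD-95, had a log2 fold change of 0.40 (adjusted p = 0.0634).

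Of the relatives of the KChIPs, the neuronal calcium sensors, 6 of 7 were tested and 0 passed in either direction with edgeR. At an unadjusted p under 0.05 there was 1 of 6, against 34.7% of all tested genes, and the median log2 fold change was 0.04. The smallest p was that of Hpcal4 (log2 fold change 0.35, adjusted p = 0.0925). Of 4 relatives of the DPPs that keep peptidase activity, Dpp8 rose (log2 fold change 1.41, SE 0.34, adjusted p = 0.0330), and the median was 0.45. None of these 4 lists held a gene past adjustment in the comparisons that involve sgKcna1. With edgeR 0 of 17615 tested genes passed in either of those comparisons, so this is no result about the lists.

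Cell type markers differed between epileptic sgLacZ and control libraries as well. Of 4 markers of all neurons 0 passed adjustment and 2 had an unadjusted p under 0.05, and their sums did not overlap. Among all tested genes 11.0% passed adjustment and 34.7% had an unadjusted p under 0.05. CA3 pyramidal markers summed to 162 to 210 CPM in controls and 124 to 161 CPM in epileptic sgLacZ libraries, and 1 of 4, Bok, fell. Bok made up most of this sum, with a mean of 174 CPM in controls against at most 8.06 for each other marker. The log2 fold change was 0.41 for Cdh24, -0.05 for Coch and -0.29 for Iyd. For CA1 pyramidal cells 1 of 4 markers, Wfs1, rose, and the sums were 574 to 615 and 577 to 695 CPM. The CA1 markers did not share a direction. Their log2 fold changes were 0.49 for Wfs1, 0.38 for Fibcd1, 0.23 for Mpped1 and -0.48 for Pou3f1. Pou3f1 had the highest mean of these in controls, 233 CPM, against 167 CPM in epileptic sgLacZ libraries. Dentate granule cell markers, 0 of 4 called, summed to 219 to 316 and 259 to 403 CPM. Those of interneurons summed to 1224 to 1532 CPM in controls and 819 to 1380 CPM in epileptic sgLacZ libraries. Of these 0 of 6 passed adjustment and 3 had a lower mean at an unadjusted p under 0.05, Pvalb (log2 fold change -1.01, adjusted p = 0.0524), Sst (-0.80, adjusted p = 0.0505) and Vip (-0.38, adjusted p = 0.110). The other 3 were Gad1 (-0.12), Gad2 (0.27) and Slc32a1 (0.14). Sst was the largest part of the interneuron sums, with a mean of 718 CPM in controls and 413 in epileptic sgLacZ libraries. Astrocyte markers summed to 931 to 1011 and 1025 to 1472 CPM, and 2 of 5, Aldh1l1 and Gfap, rose. Of 3 ependymal markers Tmem212 fell (log2 fold change -1.23), Ccdc153 had a lower mean (-0.67) and Foxj1 a higher one (0.25). None of the markers of microglia, oligodendrocytes, their precursors, endothelium, choroid plexus or thalamus passed adjustment. No marker was at 0 in any library. The part of these cell types in the values of Kcnd2, Kcnd3 and the other channel genes was not tested.

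By Pearson correlation of log2 CPM over the 17 libraries, the genes most like Kcnd2 were Epha4 (r = 0.87), Sertad4 (r = 0.87), Defb42 (r = 0.86), Slain2 (r = 0.86) and Gabra5 (r = 0.85). After the group means were removed the coefficients were 0.90, 0.88, 0.88, 0.82 and 0.75. Defb42 had a mean of only 0.51 CPM. These values share libraries, depth and tissue composition and are given as a description.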

How the data were processed

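Polyadenylated RNA from adult mouse hippocampus was sequenced in 17 libraries. Whether hippocampi were pooled is not given in the sources used here. The authors aligned reads to mm10 with STAR (version 2.7, per the submitters' processing notes) and deposited raw counts of reads per gene, 1 list per library. Reads mapping to several places are not counted. The annotation release is not given in the sources used here. Reverse-strand over forward-strand reads were 0.994 to 0.998, and counts of either strand were therefore taken. An unstranded kit is named in the labels, a stranded one in the study's methods.

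Groups came from the labels. Group tests used edgeR 4.0.16 in R 4.3.3 (filterByExpr, TMM scaling, 1 quasi-likelihood fit over 3 groups with no covariate, two-sided tests, Benjamini-Hochberg adjustment over 17615 genes, threshold 0.05). The study used DESeq2 (here 1.42.0), which was an alternative, as was limma 3.58.1 voom with quality weights. CPM were TMM-scaled. Log2 CPM for correlations used a prior count of 2. Exon lengths (union of exons) came from an annotation of the older build NCBIM37/mm9, and positions and promoters from RefSeq on GRCm38.p6. Library pairs of a group differed far beyond sampling noise (chi-square per degree of freedom 8.67 to 220 over 40 pairs), so none was counted as a copy. A count of 3 reads equals 0.106 to 0.253 CPM, which covers counting error only. On simulated counts for epileptic sgLacZ against control (17615 genes) the test recovered 16 of 100 genes changed 1.5-fold and 65 of 100 changed 2-fold, so a difference that did not pass adjustment may still be present. Only these genes were changed, drawn at random, and their spread followed the trend with level. In the data 11.0% of genes passed, so the simulated rates do not measure recovery for the 9 genes.

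All 9 genes are named, as are Kcna1, up to 4 genes with the smallest p of each pathway list and the 5 genes most like Kcnd2. Genes and lists were chosen with earlier results of these data known. Alternatives were other scaling, tools and filters, both strand counts, 2-group fits, covariates for unmapped reads and for sex, and leaving out each library. The labels give no sex, so it was inferred from whether Xist exceeded the summed Y-linked genes. Xist was higher in 2 of 5 control, 4 of 6 epileptic sgLacZ and 2 of 6 epileptic sgKcna1 libraries. Both exceeded 1 CPM in 6 of 17 libraries, so the inferred sex is uncertain.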

Additional observations from a re-analysis of the deposited data

Results flagged for a closer look

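For each of the 9 genes and 3 groups the highest or lowest library was compared with the rest of its group by Dixon's gap test. Of 27 such groups 4 held a library that stood apart, and chance flags about 1 in 20 groups. Kcnd2 was lowest in epileptic sgKcna1 replicate 1, at 77.9 CPM. That library also had the highest Dpp10 value of all 17, at 128 CPM. Kcnd3 was highest among controls in replicate 15, at 38.4 CPM. Kcnip1 was highest among epileptic sgLacZ libraries in replicate 4, at 27.5 CPM, which also held the highest Kcnd3 and Dpp6 values. Kcnip2 was lowest in epileptic sgKcna1 replicate 12, at 87.5 CPM, which was also the shallowest library and the one with the most unmapped reads, 41.5%. The part of depth and mapping in these values was not tested.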

How the results depend on the processing

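In epileptic sgLacZ against control, 1 of the 9 genes passed adjustment. The count was 3 with DESeq2 (Kcnd3, Kcnip1, Kcnip3) and 3 when only these groups were fitted (Kcnd2, Kcnd3, Kcnip3). It was 5 with limma voom (these 4 and Dpp6), 0 with a covariate for unmapped reads and 0 with a covariate for sex inferred from reads. Calls over all genes moved too, from 11.0% to 20.9% with DESeq2, 17.9% with only these groups, 41.4% with limma voom and 2.43% and 2.93% with these covariates, and to 27.1% without epileptic sgKcna1 replicate 12. Of settings added after seeing the data, it was 0 without the 6 libraries with both Xist and Y-linked reads (3, 5 and 3 libraries left) and 2 (Kcnd2, Kcnip3) without those of lowest and highest unmapped share. Leaving out single libraries gave 0 to 4, with 3 without epileptic sgLacZ replicate 5 (Kcnd3, Kcnip1, Kcnip3), 2 without epileptic sgKcna1 replicate 1 (Kcnd2, Kcnd3) and 4 without its replicate 12 (Kcnd2, Kcnd3, Kcnip1, Kcnip3). The cause was not tested. In both other comparisons the count was 0 under every setting run, while calls over all genes ran from 0 to 1508 (without epileptic sgLacZ replicate 5) against epileptic sgLacZ and from 0 to 266 (unmapped covariate) against control. Against control, Kcnd2 kept a negative and Kcnd3, Kcnip1 and Kcnip3 a positive log2 fold change in both epileptic groups under every setting run.

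Sign changes were limited to log2 fold changes that had not passed adjustment. For epileptic sgLacZ against control, Kcnd1 was -0.0050 with median-of-ratios scaling, -0.0043 with DESeq2, -0.0072 with both strand counts added, -0.019 with the sex covariate and -0.045 without the extremes of unmapped share. With the unmapped covariate Dpp10 was -0.16 and Kcnip2 -0.14. Leaving out single libraries gave -0.050 to 0.072 for Kcnd1 and -0.025 to 0.12 for Kcnip2. For epileptic sgKcna1 against epileptic sgLacZ, Kcnd2 was 0.0046 with median-of-ratios scaling, 0.0038 with DESeq2, 0.0021 with limma voom, 0.0077 with both strand counts, 0.020 with the sex covariate and 0.026 without the 6 libraries. Kcnip3 was -0.066 with limma voom, -0.086 without the 6 libraries and -0.033 without the extremes. Kcnd1 was -0.20, -0.23 and -0.086 in these settings and -0.17 with the unmapped covariate, which also gave 0.018 for Kcnip1 and 0.043 for Kcnip2. Leaving out single libraries gave -0.047 to 0.081 for Kcnd2, -0.0099 to 0.22 for Kcnip3 and -0.14 to 0.13 for Kcnd1. For epileptic sgKcna1 against control, Dpp6 was -0.0022 with median-of-ratios scaling and with DESeq2, -0.050 with limma voom, -0.0013 with both strand counts, -0.0018 with only these groups, -0.086 without the 6 libraries and -0.027 without the extremes. Kcnd1 was -0.14 with limma voom, -0.22 without the 6 libraries and -0.13 without the extremes, and Kcnip2 was 0.082 without the 6 libraries. Leaving out single libraries gave -0.031 to 0.047 for Dpp6, -0.13 to 0.14 for Kcnd1 and -0.056 to 0.092 for Kcnip4.

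No paired analysis was possible because the groups share no replicate numbers. Counts per gene hold no splice forms, and RNA from whole hippocampus does not separate neurons that carry the activator from other cells.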

Other observations

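Across the 17 libraries some of the 9 genes varied together. Log2 CPM of Kcnd3 and Dpp6 had a Pearson r of 0.84, and 0.80 after the group means were removed. Kcnd3 and Kcnip1 had an r of 0.66, which was 0.48 within groups. Kcnd1 and Kcnip4 varied in opposite directions, with an r of -0.80, and -0.85 within groups. Kcnd2 and Dpp10 had an r of -0.62, and -0.58 within groups. These pairs are those with the largest coefficients of 36, chosen after their values were seen. The values share libraries, depth and tissue composition and are given as a description.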
